A study of Mus musculus with 48 samples.

Results

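Ccl5 (ENSMUSG00000035042) and Cxcl10 (ENSMUSG00000034855) encode chemokines, small secreted proteins that draw leukocytes along a gradient. Both genes were picked by name with their response to irradiation in these data already known, so their change from unirradiated controls is described here without a test. They are 2 of the 47643 gene identifiers counted. Both were found in the count files.

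The 48 libraries came from organoids, small epithelial structures grown in Matrigel from submandibular salivary gland tissue. The donors were C57BL/6 mice, 8 to 12 weeks old. Cultures were irradiated on culture day 5 with protons (in the plateau of the beam) or with photons, at 4, 7 or 15 Gy, or were left unirradiated, and RNA was taken 2 or 6 days later. Each combination of 2 radiation types, 2 days and 4 dose levels, controls included, had 3 libraries, 1 per mouse, and the proton and photon irradiations were done on different days with a control of their own at each day. All groups, controls included, grew in the same medium with Wnt3a- and R-spondin1-conditioned medium, dexamethasone (a glucocorticoid) and Y27632 (a kinase inhibitor), and all had their medium refreshed after irradiation. The organoids are cultured gland cells without the circulation or the leukocytes that chemokines act on in an animal. Gene counts per library ran from 314409, in mouse 3 at 4 Gy of photons, day 6, to 4745719 (median 2952939), and the second shallowest library had 1311666. The summed level of 10 salivary epithelial markers was 6784 to 19536 CPM (counts scaled to the same total of gene counts in every library) over the 48 libraries.

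Cxcl10 binds the receptor Cxcr3, and Ccl5 binds receptors that include Ccr1 and Ccr3. Cells switch both genes on when sensors of misplaced or foreign nucleic acid, such as the RNA sensors Ddx58 (RIG-I) and Ifih1 (MDA5), activate interferon regulatory factors and NF-kappaB. Secreted type I interferon then acts through factors that include Stat2 and Irf9 on interferon response elements in promoters. In salivary glands Cxcl10 is known as an epithelial attractant of T cells in inflammation. QuantSeq libraries count the 3' end of each messenger RNA, so a count does not grow with transcript length.

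The promoter of Cxcl10 is shown because it holds elements for both pathways. The promoter set used had no window for Ccl5, so the Ccl5 promoter was not searched. The window runs from 250 bases before to 50 bases after the transcription start, at chr5:92348840-92349139 on the minus strand of GRCm38.p6 (RefSeq). Capitals mark an interferon response element, searched on both strands as GAAA and GAAA with any 2 bases between them, and an NF-kappaB element, searched as GGG and TTCC with any 3 bases between them.
Cxcl10: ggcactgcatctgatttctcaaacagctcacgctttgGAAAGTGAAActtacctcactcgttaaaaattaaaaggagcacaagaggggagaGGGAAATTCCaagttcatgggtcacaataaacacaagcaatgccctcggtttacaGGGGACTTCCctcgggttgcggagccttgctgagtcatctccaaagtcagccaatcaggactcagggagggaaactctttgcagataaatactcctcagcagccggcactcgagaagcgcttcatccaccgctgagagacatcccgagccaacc
The interferon response element starts 213 bases before the transcription start, and the NF-kappaB elements start 159 and 104 bases before it. None of the 3 matches overlaps another. Of 32851 promoter windows of this length, 3.44% hold the interferon response element, 5.56% hold the NF-kappaB element and 0.167% hold both. A match describes the letters and does not show that a factor binds there.

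In proton-irradiated organoids at day 6, Ccl5 was counted 6, 1 and 6 times in the controls of mice 1, 2 and 3. It was counted 60, 44 and 95 times at 4 Gy, 202, 186 and 180 times at 7 Gy, and 159, 190 and 205 times at 15 Gy. Every irradiated library lay above every control, and the 7 and 15 Gy libraries lay above the 4 Gy ones. The mean level was 2.07 ± 1.33 CPM in controls, 20.4 ± 4.95 at 4 Gy, 58.1 ± 15.1 at 7 Gy and 62.6 ± 11.6 at 15 Gy (SD, n = 3 each). Summed over the 3 libraries, 15 Gy stood 29.0-fold above control, with a 95% interval of 16.8 to 54.7 for counting error only.

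Cxcl10 at the same day was counted 10, 11 and 6 times in proton controls, 39, 43 and 157 times at 4 Gy, 227, 139 and 188 times at 7 Gy, and 222, 195 and 73 times at 15 Gy. The controls lay below all irradiated libraries, while mouse 3 at 4 Gy was higher, in CPM, than mouse 3 at 15 Gy. The mean was 4.50 ± 1.54 CPM in controls, 22.4 ± 12.9 at 4 Gy, 56.9 ± 22.1 at 7 Gy and 54.5 ± 25.4 at 15 Gy (SD, n = 3 each). Summed counts stood 12.3-fold above control at 15 Gy (counting interval 8.37 to 18.9).

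Day 2 after protons had far fewer Ccl5 counts. The controls held 0, 1 and 0, the 4 Gy libraries 11, 10 and 6, the 7 Gy libraries 8, 9 and 10, and the 15 Gy libraries 10, 17 and 12. The groups did not overlap, but the control level rests on 1 count, and 3 counts would have stood for 1.08 and 1.48 CPM in the control libraries at 0. The ratio of 15 Gy to control, 32.3, therefore carried a counting interval of 5.47 to 1309. Means were 0.146 CPM in controls and 3.32 ± 0.78, 4.65 ± 1.29 and 4.56 ± 1.09 CPM at 4, 7 and 15 Gy (SD, n = 3 each).

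Cxcl10 at day 2 after protons was counted 1, 2 and 2 times in controls, 20, 59 and 12 times at 4 Gy, 19, 24 and 55 times at 7 Gy, and 39, 60 and 46 times at 15 Gy. All irradiated libraries were above all controls, and the dose groups overlapped one another. The 15 Gy mean was 17.0 ± 3.31 CPM, against 0.741 ± 0.334 CPM in controls (SD, n = 3 each), and summed counts stood 24.03-fold above control (counting interval 10.1 to 75.1).

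Photon-irradiated organoids at day 6 had Ccl5 counts of 17, 4 and 26 in controls, 57, 129 and 0 at 4 Gy, 83, 118 and 104 at 7 Gy, and 76, 206 and 92 at 15 Gy. The 0 belongs to the shallow library of mouse 3, in which 3 counts would stand for 9.54 CPM, so it does not separate that library from the controls. At 7 and 15 Gy all libraries were above all controls. The means were 4.33 ± 2.96 CPM in controls, 14.3 ± 13.9 at 4 Gy, 27.6 ± 0.897 at 7 Gy and 31.6 ± 10.3 at 15 Gy (SD, n = 3 each).

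Cxcl10 at day 6 after photons was counted 91, 13 and 17 times in controls, 109, 161 and 2 times at 4 Gy, 152, 182 and 83 times at 7 Gy, and 77, 239 and 70 times at 15 Gy. The control of mouse 1 was high, at 20.3 CPM, and overlapped the 4 and 15 Gy groups. Summed counts stood 2.91-fold above control at 15 Gy (counting interval 2.36 to 3.59). The log2 fold change was 1.54 ± 0.49 with all controls and 2.61 without the control of mouse 1.

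At day 2 after photons, Ccl5 was counted 4, 2 and 1 times in controls, 10, 12 and 11 times at 4 Gy, 19, 19 and 15 times at 7 Gy, and 5, 16 and 16 times at 15 Gy. The groups did not overlap the controls in CPM, and mouse 1 at 15 Gy, with 1.69 CPM, was the irradiated library nearest to them. Cxcl10 was counted 6, 6 and 0 times in controls, 63, 50 and 60 times at 4 Gy, 180, 106 and 63 times at 7 Gy, and 144, 140 and 198 times at 15 Gy. Its mean was 1.31 ± 1.15 CPM in controls, 16.0 ± 2.14 at 4 Gy, 31.5 ± 13.3 at 7 Gy and 52.7 ± 15.5 at 15 Gy (SD, n = 3 each). Summed Cxcl10 counts stood 35.6-fold above control at 15 Gy (counting interval 20.2 to 69.5), and those of Ccl5 4.69-fold (counting interval 2.06 to 12.5).

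**Figure D1:**
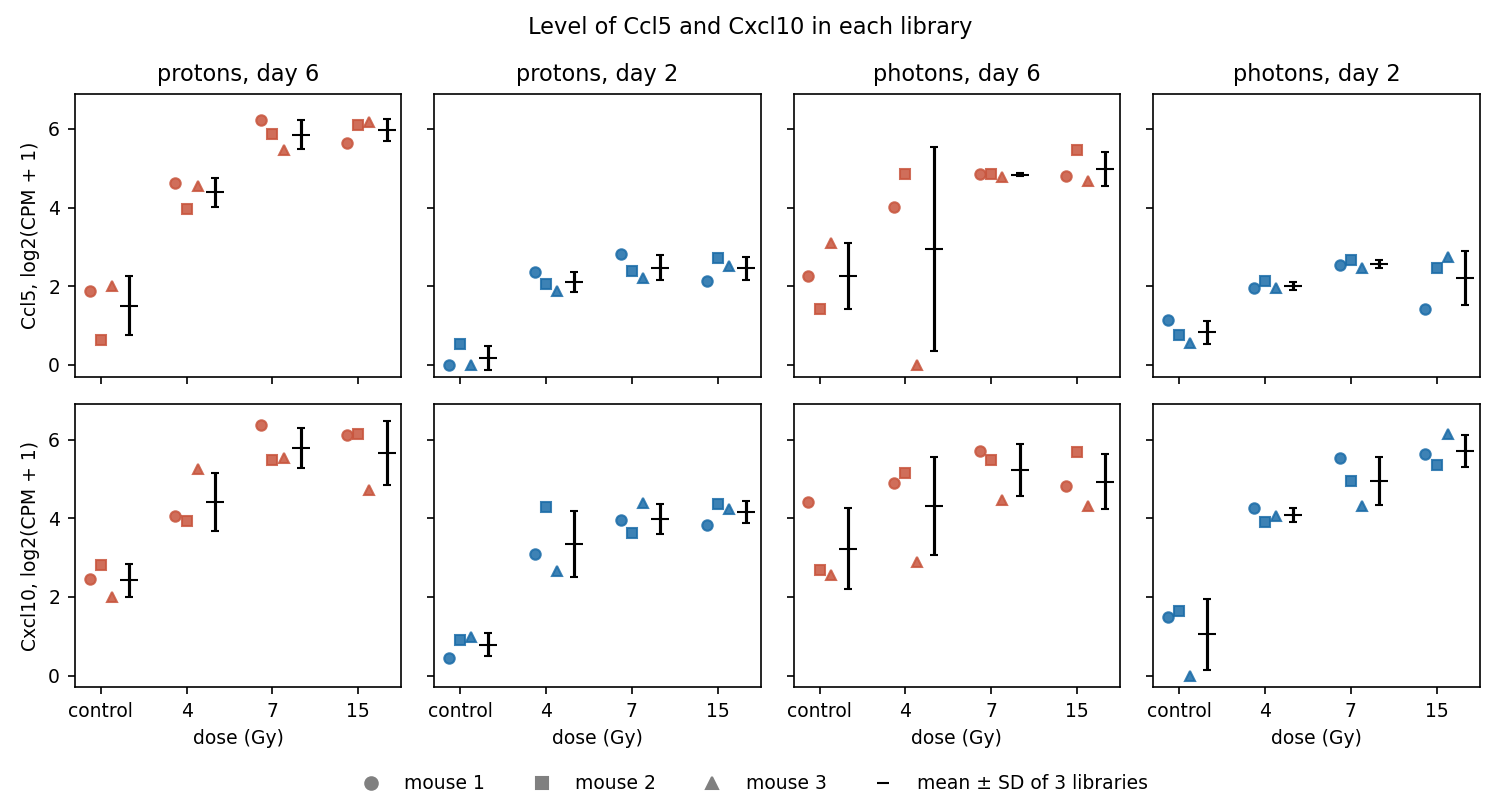
Level of Ccl5 (top) and Cxcl10 (bottom) as log2(CPM + 1) in each library, by dose, radiation type and day; symbols are mice and bars the mean ± SD of 3 libraries on that scale. Proton groups at day 6 reach the highest Ccl5 levels, and the point at 0 among the irradiated libraries is the shallow library of 4 Gy of photons.

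Ordered by mean level over the 16 groups, Ccl5 was highest at 15 and 7 Gy of protons, day 6, followed by 15 and 7 Gy of photons, day 6, and all 6 irradiated groups of day 6 stood above all groups of day 2. Neighbours in this order overlapped in range except at 2 steps, between 7 Gy of photons and 4 Gy of protons at day 6, and between the photon and proton controls of day 2. Cxcl10 had a different order: 15 Gy of photons, day 2, stood at 52.7 CPM, next after 7 and 15 Gy of protons at day 6 with 56.9 and 54.5 CPM, and neighbouring groups overlapped except between the proton control of day 6 and the photon control of day 2. Levels of proton and photon organoids come from different irradiation days, so the order between the types is given as values only. In bulk RNA, more cells that make a transcript and more transcript per cell cannot be told apart.

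Over the 12 comparisons of a dose with its own control, Ccl5 ranges lay apart in 11 and Cxcl10 ranges in 10. How many of all genes had ranges apart, or all mice higher, was not counted, and the shares below use a different measure. All 3 mice were higher than their own control in 11 comparisons for Ccl5 and in 12 for Cxcl10. The 12 include the shallow library of mouse 3 at 4 Gy of photons, day 6. It had 2 Cxcl10 counts (6.36 CPM, where 3 counts stand for 9.54 CPM), against 4.92 CPM in its control, so it does not separate from that control. Of all genes tested, the share that rose at 4, 7 and 15 Gy (edgeR quasi-likelihood test, Benjamini-Hochberg adjusted p under 0.05) was 1.13, 5.49 and 11.0% for protons at day 6, and 0.703, 1.62 and 3.94% for protons at day 2. It was 0.937, 1.49 and 2.52% for photons at day 6, and 0.534, 1.56 and 2.57% for photons at day 2. With the mouse as a replicate block, 126 genes rose at 4 Gy of protons, day 2, against 74 without it. Scaling by library size alone shifted the median gene at day 6 after protons by 0.11, 0.19 and 0.15 on the log2 scale at 4, 7 and 15 Gy. It gave 181 genes that rose and 27 that fell at 4 Gy, against 122 and 47 with TMM scaling, and 1400 and 380 at 7 Gy, against 594 and 713. At 4 Gy of photons, day 2, it gave 61 and 6, against 59 and 14. Nothing is read from the members' counts against these shares, since the members were chosen with these comparisons known.

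The size of the change differed between the genes. For protons at day 6, the log2 fold changes of Ccl5 at 4, 7 and 15 Gy were 3.11 ± 0.50, 4.54 ± 0.49 and 4.69 ± 0.49, and those of Cxcl10 were 2.24 ± 0.60, 3.46 ± 0.58 and 3.44 ± 0.58 (± SE, 3 libraries per group). For photons at day 2 the order of the genes was the opposite, with 1.74 ± 0.55, 2.44 ± 0.54 and 2.19 ± 0.55 for Ccl5 and 3.37 ± 0.64, 4.38 ± 0.63 and 5.17 ± 0.62 for Cxcl10. Both genes were measured in the same libraries, and this difference between them was not tested.

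**Figure D2:**
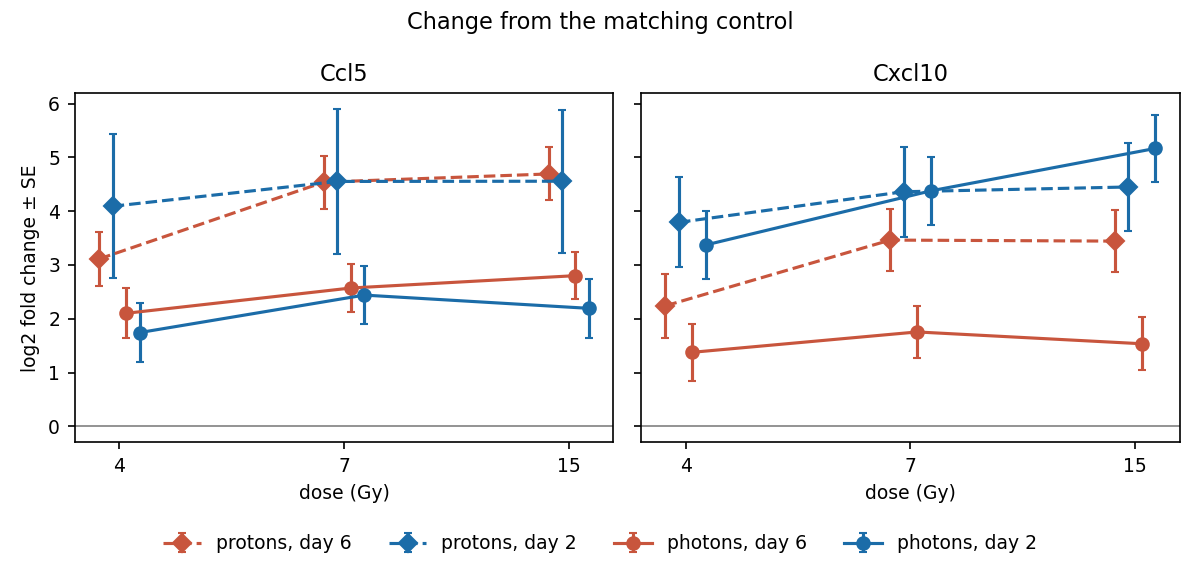
Log2 fold change ± SE of Ccl5 (left) and Cxcl10 (right) from the matching control at 4, 7 and 15 Gy, from edgeR fits of 12 libraries each. The line of photons at day 2 is the uppermost for Cxcl10 at 15 Gy, at 5.17, and the lowest for Ccl5, at 2.19.

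The dependence on dose among irradiated groups was not used to choose the genes and was tested. Ccl5 rose between 4 Gy and the higher doses of protons at day 6. The log2 difference was 1.58 ± 0.23 for 15 against 4 Gy (adjusted p = 0.00128) and 1.43 ± 0.23 for 7 against 4 Gy (adjusted p = 0.0119), from the edgeR quasi-likelihood fit, with Benjamini-Hochberg adjustment over all genes. In these comparisons 2.63% and 0.231% of genes tested rose, which is 284 and 25 genes, against 188 and 12 with the mouse as a replicate block. From 7 to 15 Gy the difference was 0.15, with a 95% interval of -0.29 to 0.60 (edgeR adjusted p = 0.899). The call for 7 against 4 Gy was lost without mouse 2 at 4 Gy (1.27, adjusted p = 0.0867) or without mouse 1 at 7 Gy (1.23, adjusted p = 0.0647). For Cxcl10 the proton difference at day 6 was 1.20 ± 0.36 for 15 against 4 Gy, just short of the threshold (edgeR adjusted p = 0.0525), and it passed without mouse 3 at 15 Gy (1.55, adjusted p = 0.0126), mouse 3 at 4 Gy (1.79, adjusted p = 0.0286) or mouse 1 at 7 Gy (1.22, adjusted p = 0.0443).

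Cxcl10 rose with photon dose at day 2. It was higher at 15 Gy than at 4 Gy by 1.79 ± 0.32 on the log2 scale (edgeR adjusted p = 0.0391), a direction seen in all 3 mice, and 0.236% of genes tested rose in this comparison. The adjusted p was 0.0858 with scaling by library size alone (1.72). It was 0.0627 to 0.243, with differences of 1.59 to 1.91, in 7 of 12 fits with 1 library left out: mouse 2 of the controls, each mouse at 4 Gy, mouse 2 at 7 Gy, and mice 1 and 3 at 15 Gy. Ccl5 differed by 0.45 in the same comparison (95% interval -0.33 to 1.24, edgeR adjusted p = 0.661). No other dose difference of either gene passed in these fits. Without the filter on low counts, Cxcl10 also passed for 15 against 7 Gy (0.77) and 7 against 4 Gy (1.00) of photons, day 2, and for 7 against 4 Gy of protons, day 6 (1.22), the last also without mouse 3 at 15 Gy (1.22, edgeR adjusted p = 0.0451). For photons at day 6 the 15 against 4 Gy differences were 0.70 (95% interval -0.03 to 1.43) for Ccl5 and 0.16 (-0.82 to 1.13) for Cxcl10, and for protons at day 2 they were 0.47 (-0.33 to 1.26) and 0.66 (-0.03 to 1.34).

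Without irradiation, both transcripts were higher at day 6 than at day 2. In photon controls the log2 difference was 2.31 ± 0.80 for Ccl5 (adjusted p = 0.0229) and 2.84 ± 0.93 for Cxcl10 (adjusted p = 0.0142) by the edgeR quasi-likelihood test. In proton controls it was 3.57 ± 1.53 for Ccl5 (edgeR adjusted p = 0.0112) and 2.59 ± 1.19 for Cxcl10 (edgeR adjusted p = 0.0725). Within each radiation type, all control libraries of day 6 were above those of day 2 for both genes. For Ccl5 in proton controls this rests on mouse 2, with 1 count at day 6 (0.552 CPM) and 1 count at day 2 (0.438 CPM). With time, 6.25% of genes tested rose in photon controls and 8.28% in proton controls. These calls rest on few counts. The Cxcl10 call in photon controls was lost without mouse 1 of day 6 (1.78, adjusted p = 0.216). The Ccl5 call in photon controls was lost without mouse 3 of day 6 (1.72, adjusted p = 0.143), or mouse 2 (2.22, adjusted p = 0.0744) or mouse 3 (2.16, adjusted p = 0.056) of day 2. In proton controls the Ccl5 call was lost without mouse 1 (3.31, adjusted p = 0.0501) or mouse 3 (3.29, adjusted p = 0.0532) of day 6, or mouse 1 of day 2 (3.01, adjusted p = 0.0616). Its value was 5.66 without mouse 2 of day 2, which leaves no Ccl5 count in those controls. The Cxcl10 difference in proton controls passed without mouse 3 at 15 Gy, day 6 (2.59, edgeR adjusted p = 0.0399), without the filter on low counts, and with DESeq2 (2.65, adjusted p = 0.0102).

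Differences between the effects of protons and photons did not pass the threshold, except at 7 and 15 Gy, day 6, when low counts were not filtered. The labels do not say whether the proton and photon series share mice, and the libraries were treated as independent. At 15 Gy, day 6, the proton effect exceeded the photon effect by 1.94 ± 0.76 for Ccl5 (adjusted p = 0.106) and by 1.95 ± 0.89 for Cxcl10 (adjusted p = 0.173) on the log2 scale, in edgeR's quasi-likelihood interaction test of 24 libraries. The 95% intervals were 0.38 to 3.50 and 0.12 to 3.78, and 2.56% of genes tested were higher in this interaction. At 15 Gy, day 2, the differences were 2.45 ± 1.36 for Ccl5 (95% interval -0.36 to 5.27) and -0.67 ± 1.12 for Cxcl10 (-2.99 to 1.64). The irradiation day goes with the radiation type, and these cannot be told apart.

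The effect of photons on Cxcl10 was smaller at day 6 than at day 2 by 3.60 on the log2 scale at 15 Gy (difference -3.60 ± 1.01, 95% interval -5.70 to -1.51), which did not pass the threshold of the edgeR interaction test (adjusted p = 0.150), in a comparison where 0.0864% of genes were lower. DESeq2 gave -3.63 with an adjusted p of 0.00285, and the edgeR fit without a filter on low counts also passed, while single libraries left out did not change the call. For Ccl5 the same difference was 0.61 ± 0.90 (95% interval -1.24 to 2.47, edgeR adjusted p = 0.919). With protons at 15 Gy the differences between days were 0.10 ± 1.56 for Ccl5 and -1.01 ± 1.25 for Cxcl10, with 95% intervals of -3.11 to 3.30 and -3.57 to 1.55. The level of Cxcl10 at 15 Gy of photons was 32.1 ± 16.4 CPM at day 6 and 52.7 ± 15.5 CPM at day 2 (SD, n = 3 each), with overlapping ranges, while its controls averaged 10.2 ± 8.74 CPM at day 6 and 1.31 ± 1.15 CPM at day 2. Ccl5 at 15 Gy of photons was 31.6 ± 10.3 CPM at day 6 and 3.96 ± 2.04 CPM at day 2, with ranges apart.

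The balance of the genes moved towards Ccl5 with time after irradiation. Ccl5 made up 45.4, 50.6 and 53.1% of the counts of both genes at 4, 7 and 15 Gy of protons at day 6, and 22.9, 21.6 and 21.2% at day 2. For photons the shares at 4, 7 and 15 Gy were 40.6, 42.2 and 49.2% at day 6 and 16.0, 13.2 and 7.13% at day 2. Exact 95% intervals at 15 Gy were 50.0 to 56.1% at day 6 and 15.5 to 27.8% at day 2 for protons, and 45.6 to 52.8% at day 6 and 5.07 to 9.69% at day 2 for photons, for counting error only. Since 3' counts of the same 2 genes are compared between libraries, the share needs no correction for length or depth.

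Library by library, the Ccl5 share ran from 37.7 to 73.7% at day 6 and from 14.5 to 35.5% at day 2 in proton-irradiated organoids, without overlap. In photon-irradiated organoids it ran from 0 to 56.8% at day 6 and from 3.36 to 19.4% at day 2, and the 0 is the shallow library with 2 counts in all for both genes. The log2 ratio of Ccl5 to Cxcl10, with 0.5 added to each count, was higher at day 6 than at day 2 by 1.77 for protons (exact permutation test within doses, two-sided p = 0.00025, the smallest that 8000 permutations can give). For photons it was higher by 2.39 (two-sided exact permutation p = 0.0005). Both tests treat libraries of the same mouse as independent. By dose, the difference between days was 1.40, 1.72 and 2.19 at 4, 7 and 15 Gy of protons and 1.15, 2.18 and 3.85 at 4, 7 and 15 Gy of photons. Leaving out single libraries gave 1.58 to 1.90 for protons and 2.24 to 2.58 for photons. The controls of day 2 had too few counts for the same reading, so whether the balance moves with culture time alone was not tested. In proton controls Ccl5 made up 13 of 40 counts (32.5%) at day 6 and 1 of 6 at day 2. In photon controls it made up 47 of 168 (28.0%) at day 6 and 7 of 19 (36.8%) at day 2. Single photon controls of day 6 ran from 15.7 to 60.5%.

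**Figure D3:**
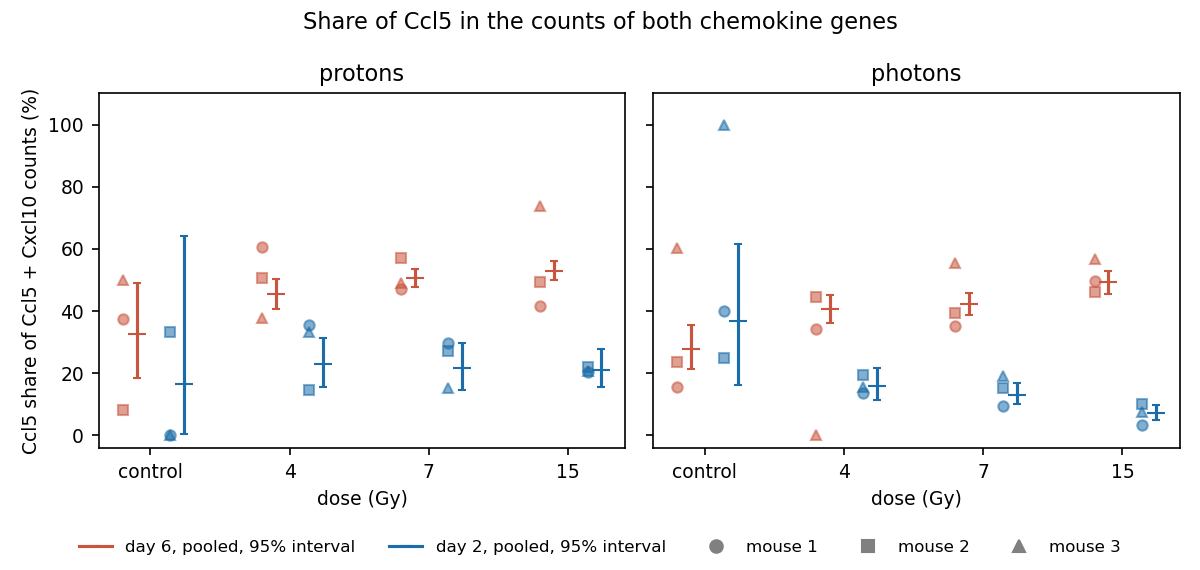
Share of Ccl5 in the summed counts of Ccl5 and Cxcl10 by dose, for protons (left) and photons (right), day 6 in red and day 2 in blue; symbols are libraries and bars the pooled share with its exact 95% interval. All proton-irradiated libraries of day 6 lie at or above 37.7%, and all of day 2 at or below 35.5%.

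Within groups the genes did not always move together between mice. The 2 genes deviated from their group means in the same direction in 6 of 9 irradiated libraries at day 6 and 5 of 9 at day 2 for protons, and in 9 of 9 at day 6 and 4 of 9 at day 2 for photons. An example of the opposite is mouse 3 at 15 Gy of protons, day 6, which had the most Ccl5 of its group, 70.9 CPM, and the least Cxcl10, 25.2 CPM.

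**Figure D4:**
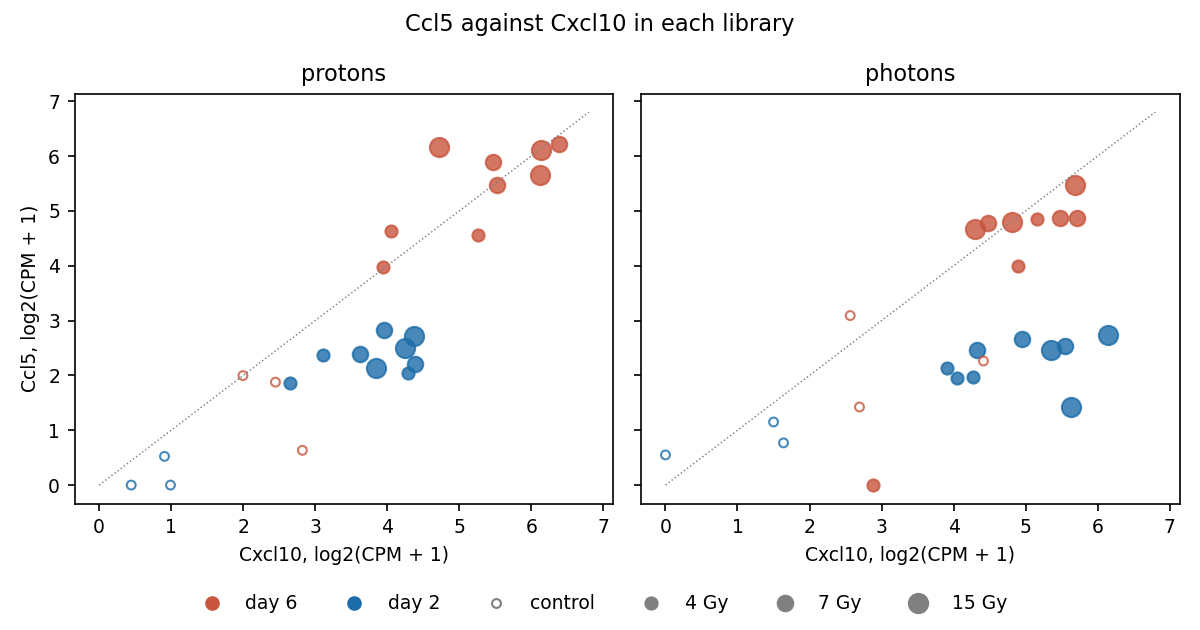
Ccl5 against Cxcl10 as log2(CPM + 1) in each library, for protons (left) and photons (right); open circles are controls, filled circles grow with dose, red is day 6 and blue day 2, and the dotted line marks equal levels. Irradiated libraries of day 2 lie below the line, and those of day 6 lie on both sides of it. Among those of day 6, mouse 3 at 15 Gy of protons (Ccl5 70.9 CPM, Cxcl10 25.2 CPM) lies well above the line. The photon library with 0 Ccl5 counts lies well below it.

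The genes whose level over the 48 libraries ranked most like that of Ccl5, among 9820 other genes with a mean of at least 5 CPM, were Zbp1 (Spearman's correlation 0.90), Rtp4 (0.90), Ifi203 (0.89), Ifi205 (0.89), Iigp1 (0.88) and B2m (0.88). Those most like Cxcl10 were Tor3a (0.92), Cmpk2 (0.92), Gm20559 (0.92), Igtp (0.92), Dtx3l (0.91) and Parp14 (0.91). Neither chemokine was near the top of the other's list: Cxcl10 ranked 83 for Ccl5 and Ccl5 ranked 96 for Cxcl10, with a Spearman correlation of 0.76, or 0.62 over the 36 irradiated libraries. These values describe libraries that fall into dose and day groups and share depth within a library. Ifi203 and Ifi205 belong to a family of closely similar genes, whose reads the counting could split. Promoter windows were given for 3 of the genes like Ccl5 (B2m, Ifi203 and Ifi205), all with the interferon response element searched above, and for 4 of those like Cxcl10, of which Igtp had it.

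Transcripts of the other Cxcr3 ligand genes were scarce. Cxcl9 and Cxcl11 each had 52 counts in the 36 irradiated libraries and 3 in the 12 controls, and neither passed the filter on low counts. Cxcl11 was highest at 15 Gy of protons, day 6, with 18 counts in 3 libraries (2.08 ± 1.33 CPM, SD, n = 3). Cxcl9 had its highest mean at 7 Gy of protons, day 6, with 10 counts (1.09 ± 1.31 CPM, SD, n = 3). The Cxcl9 promoter window (chr5:92328030-92328329, minus strand, GRCm38.p6) held neither element. The receptors named here were nearly absent. Cxcr3 had 0 counts in all 48 libraries, which allows up to 3 counts in total, and Ackr1, a decoy receptor of red cells and blood vessels, also had 0. Ccr1, Ccr3 and the decoy receptor Ackr2 had totals of 5, 10 and 2 counts.

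Surface partners of chemokines were counted at high levels. The heparan sulfate proteoglycans Sdc1 and Sdc4, whose sugar chains hold chemokines at the cell surface, fell at 15 Gy of protons, day 6, by 0.52 ± 0.13 (adjusted p = 0.00642) and by 0.98 ± 0.16 (adjusted p = 0.000292) on the log2 scale in edgeR's quasi-likelihood test. Of 9 receptors and partners listed, 2 were tested there and both fell, against 13.2% of all genes tested. This list and those below were chosen with earlier results of these data known, so their counts beside all genes are a description. Dpp4, a protease that trims both chemokines, averaged 0.67 to 11.4 CPM over the groups. It was tested at day 2, and at 15 Gy none of the 3 genes tested passed in either radiation type.

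Of 33 other chemokines, 13 were tested at 15 Gy of protons, day 6. Of these, 1 rose and 7 fell, while 11.0% of all genes rose and 13.2% fell, and the median log2 change was -0.86, against -0.02 for all genes. Ppbp (-1.93 ± 0.18, adjusted p = 1.34e-06), Cxcl2 (-1.33 ± 0.20, adjusted p = 0.000121), Cxcl17 (-1.58 ± 0.29, adjusted p = 0.000808) and Cxcl5 (-0.68 ± 0.22, adjusted p = 0.034) fell in edgeR's quasi-likelihood test. These falls are against the control of day 6. In proton controls the same 4 genes were higher at day 6 than at day 2, by 1.80, 3.88, 2.98 and 5.06 on the log2 scale. Each passed the threshold of the edgeR test. Ppbp, Cxcl2 and Cxcl5 encode neutrophil attractants that bind Cxcr2, and Cxcl17 a mucosal chemokine. Chosen after their values were seen, the other called genes were Ccl20 (-2.88), Cxcl3 (-2.12) and Cx3cl1 (-0.86), which fell, and Cxcl16 (0.70), which rose.

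At 15 Gy of protons, day 2, Cxcl5 (0.98 ± 0.15, adjusted p = 0.000466) and Ppbp (0.97 ± 0.18, adjusted p = 0.00251) rose instead, 2 of 9 tested chemokines against 3.94% of all genes, and none fell, against 4.37%. For photons at day 6, Ppbp fell (-1.95 ± 0.35, adjusted p = 0.00497), 1 of 15 tested against 2.77% of all genes. For photons at day 2, Cxcl5 rose (0.72 ± 0.18, edgeR adjusted p = 0.0323), 1 of 10 tested, and none fell, while 2.57% of all genes rose and 2.38% fell. Scaling by library size alone gave Cxcl5 adjusted p-values of 0.0770 for photons at day 2 and 0.1005 for protons at day 6, with the same directions, and it let Cxcl16 pass at 15 Gy of photons, day 2 (0.49, adjusted p = 0.0494, against 0.0864 with TMM). That scaling gave 1947 genes that rose and 925 that fell, against 1184 and 1427 with TMM, at 15 Gy of protons, day 6.

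Genes for RNA sensors, which act upstream of both chemokines in the known pathway, rose, and interferon genes had almost no counts. The order of these changes was not tested. Of 10 interferon genes, 2 had any count: Ifnb1 had 3 counts and Ifnl2 had 1 in all 48 libraries. All 6 interferon receptor chains were tested, and at 15 Gy none rose and 1 fell, Ifnlr1 at day 6 after protons (-0.83 ± 0.25, edgeR adjusted p = 0.0227; adjusted p = 0.0607 with scaling by library size alone). Of 11 sensors and adaptors, 6 rose and none fell at 15 Gy of protons, day 6, while 11.0% of all genes rose and 13.2% fell. Ifih1 rose by 2.72 ± 0.16 (adjusted p = 1.72e-09), Ddx58 by 2.35 ± 0.17 (adjusted p = 1.88e-08), Zbp1, a sensor of Z-form nucleic acid, by 5.97 ± 0.99 (adjusted p = 3.5e-07) and Tlr3, a receptor for double-stranded RNA, by 1.44 ± 0.21 (adjusted p = 8.46e-05), in edgeR's test. At 15 Gy the number of these 11 that rose was 6 for protons at day 2 (3.94% of all genes), 5 for photons at day 6 (2.52%) and 4 for photons at day 2 (2.57%). The count for protons at day 2 was 3 with DESeq2 and 2 or 3 without mouse 2 or 3 of the controls or any mouse at 15 Gy. Sting1, the adaptor of the DNA-sensing pathway, which is named after its value was seen, fell at 15 Gy of protons, day 2 (-0.85 ± 0.21, edgeR adjusted p = 0.0142).

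Among 15 factors known to act at these promoters, Irf7, Irf9 and Stat2 rose in all 12 comparisons with control. At 15 Gy, 6 of the 15 passed in either direction for protons at day 6, while 11.0% of all genes rose and 13.2% fell. The number was 5 for protons at day 2, where 3.94% of all genes rose and 4.37% fell. It was 6 for photons at day 6 (2.52% and 2.77%) and 4 for photons at day 2 (2.57% and 2.38%). At 15 Gy of protons, day 6, Irf7 rose by 3.89 ± 0.19 (adjusted p = 1.63e-10), Stat2 by 3.17 ± 0.26 (adjusted p = 2.75e-08) and Irf9 by 1.34 ± 0.13 (adjusted p = 8.81e-07) in edgeR's quasi-likelihood test. At 15 Gy of photons, day 2, where Cxcl10 changed most, Irf7 rose by 2.76 ± 0.24, Stat2 by 2.91 ± 0.24 and Irf9 by 1.37 ± 0.13 (edgeR). The genes that follow are named after their values were seen. The NF-kappaB subunit genes Nfkb1, Rela, Rel and Relb passed in none of the 12 comparisons. Nfkb2 fell at 15 Gy of photons, day 6 (-0.66 ± 0.18, edgeR adjusted p = 0.0482, and 0.0519 with scaling by library size alone). Irf1 rose in the same comparison (0.57, edgeR adjusted p = 0.0297, and 0.0664 with scaling by library size alone). Klf13, a factor known to bind the Ccl5 promoter in T cells, fell at 15 Gy of protons, by 1.14 ± 0.15 at day 6 (edgeR adjusted p = 4.37e-05) and by 0.74 ± 0.16 at day 2 (edgeR adjusted p = 0.00652).

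Of 16 NF-kappaB targets other than chemokines, 10 were tested at 15 Gy of protons, day 6, and 1 rose and 2 fell, while 11.0% of all genes rose and 13.2% fell. Tnip1 rose (0.68 ± 0.18, adjusted p = 0.00984), and Il1a (-1.83 ± 0.17, adjusted p = 4.94e-07) and Nfkbia, named after its value was seen (-0.47 ± 0.12, adjusted p = 0.0104; 0.0697 with scaling by library size alone) fell, in edgeR's test. At day 6 after photons, Tnfaip3 rose (1.28 ± 0.33, edgeR adjusted p = 0.0316) and Bcl3 fell (-0.83 ± 0.16, edgeR adjusted p = 0.00613) among 11 tested, while 2.52% of all genes rose and 2.77% fell. At day 2, none of 8 tested passed after either radiation. Of 30 interferon-stimulated genes, 29 rose and 1 fell (Ifi27, -0.70, adjusted p = 0.0249, and 0.0663 with scaling by library size alone) at 15 Gy of protons, day 6, with a median log2 change of 4.38, while 11.0% of all genes rose and 13.2% fell. At 15 Gy the count that rose was 23 of 28 tested for protons at day 2 (3.94% of all genes), 28 of 30 for photons at day 6 (2.52%) and 26 of 28 for photons at day 2 (2.57%), and Ifi27 also fell for photons at day 6 (-1.26, edgeR adjusted p = 0.00371). Within that list Ifit3, Oasl2, Ifi44 and Rtp4 rose by 7.26, 4.60, 4.05 and 3.75 at 15 Gy of protons, day 6. Since the lists were chosen with earlier results of these data known, their counts beside the shares of all genes are a description. The difference between these lists was not tested.

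Immune cells are the best known source of Ccl5. Of 24 immune cell markers, the T cell genes Cd3e, Cd3d and Cd3g, the cytotoxic genes Nkg7, Gzmb and Ncr1, the B cell gene Ms4a1, and the myeloid genes Adgre1 and Tyrobp were at 0 in all 48 libraries. Ptprc, the common leukocyte antigen, had 7 counts in all. The summed level of the 24 was 5.89 to 10.7 CPM in irradiated proton libraries of day 6, against 2.76 to 6.97 CPM in their controls, and 1.52 to 5.91 CPM at day 2, against 2.96 to 4.81 CPM. It was 3.18 to 19.9 CPM in irradiated photon libraries of day 6, against 7.99 to 21.7 CPM in their controls, and 2.03 to 7.33 CPM at day 2, against 3.05 to 6.96 CPM. Most of these counts came from Cd68 (480), Aif1 (213), Lyz2 (182) and Itgam (181). The summed level of 9 fibroblast and endothelial markers was 1.55 to 4.37 CPM in irradiated proton libraries of day 6, against 0.498 to 1.10 CPM in their controls, and reached at most 3.61 CPM elsewhere. That of the 10 epithelial markers was 7270 to 9313 CPM in irradiated proton libraries of day 6, against 9131 to 9665 CPM in their controls. The part of these levels in the results was not tested.

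Art3, a gene on the opposite strand, overlaps Cxcl10 in the GRCm38 annotation. It had 0 to 10 counts per irradiated library and 0 to 9 per control, and reads from the 2 strands cannot be told apart unless the counting used strand. The strand setting is not given in the sources used here. For Ccl5 the annotation holds no overlapping gene.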

How the data were processed

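The deposited files hold whole-number counts per gene, which per the labels come from QuantSeq 3' libraries made from 100 ng of RNA (integrity number above 9). Per the submitters' processing notes the build was GRCm39 and edgeR was used; the aligner, counter, strand setting and annotation were not given in these sources. The 5 summary lines per file were left out (the no-feature line held 7.88 to 12.1% of a file's reads), and the deposited CPM tables were not used. Symbols were matched for 47224 of 47643 identifiers. Promoter windows came from RefSeq on GRCm38.p6.

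Groups followed the sample titles. Counts were fitted with edgeR 4.0.16 in R 4.3.3 (TMM, filterByExpr, quasi-likelihood F test, Benjamini-Hochberg adjustment, threshold 0.05, prior count 0.125): 12 libraries per radiation type and day for doses, with 10810 (protons, day 6), 10529 (protons, day 2), 11308 (photons, day 6) and 11039 (photons, day 2) genes tested, and 24 for interactions and controls over time. In all, 38 comparisons were fitted and 26 tested for each chemokine. The code was tested on simulated data. SE comes from the fitted weights and the moderated dispersion, and intervals cover 95%. Counting intervals are exact (SciPy 1.17.1), cover counting error only, and a count of 0 allows 3 counts. The balance test permuted days within doses and treated libraries of the same mouse as independent.

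The members and lists were chosen with earlier results of these data known. Named genes were the members, the Cxcr3 ligands, receptors and partners with a count, up to 4 genes of each other list with the smallest p at 15 Gy, and the 6 most alike genes for each member; those named otherwise are said to be, and some listed genes are not reported here by name. Per the labels, same-numbered libraries of a radiation type come from 1 mouse. Their deviations from group means correlated at -0.027 (protons, day 6), 0.081 (protons, day 2), 0.077 (photons, day 6) and 0.078 (photons, day 2). For libraries of different numbers the values, in the same order, were 0.013, -0.040, -0.036 and -0.041. The main fits left the mouse out, and the replicate block was run as an alternative. Replicates of a group are separate mice; the labels do not say whether both radiation types used the same mice.

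Alternatives were scaling by library size alone, DESeq2 1.42.0, no filter, a replicate block, a prior count of 2, 1 added per count, and each library left out.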

Additional observations from a re-analysis of the deposited data

How the results depend on the processing

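No change from control and no difference past the threshold, for either gene, changed sign under any alternative run. With the mouse as a replicate block, no call of either gene changed. The balance differences stayed at 1.77 for protons and 2.39 for photons (exact permutation p = 0.00391 each, from 512 permutations, the smallest possible). Days were swapped separately for each mouse at each dose, so the doses of the same mouse were treated as independent. A prior count of 2 gave 2.49 for Ccl5 and 3.53 for Cxcl10 at 15 Gy of protons, day 2, where control counts are near 0; the shrinkage is part of that setting. Scaling by library size alone gave 1.72 for Cxcl10 at 15 against 4 Gy of photons, day 2, no longer past the threshold. Without the filter on low counts, Cxcl10 at 15 against 4 Gy of protons, day 6 (1.21), the proton minus photon effect at 15 Gy, day 6 (1.94 for Ccl5, 1.96 for Cxcl10) and the day 6 minus day 2 effect of 15 Gy of photons on Cxcl10 (-3.61) passed, as did the last with DESeq2 (-3.63). Without the filter so did Cxcl10 at 15 against 7 Gy (0.77) and 7 against 4 Gy (1.00) of photons, day 2, and at 7 against 4 Gy of protons, day 6 (1.22), the proton minus photon effect at 7 Gy, day 6 (2.01 for Ccl5, 1.74 for Cxcl10), the day 6 minus day 2 effect of photons on Cxcl10 at 4 Gy (-2.002) and 7 Gy (-2.61), and Cxcl10 in proton controls over time (2.57, and 2.65 with DESeq2); the cause was not tested.

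Leaving out single libraries gave 1.59 to 1.96 for Cxcl10 at 15 against 4 Gy of photons, day 2, 0.99 to 1.79 for Cxcl10 at 15 against 4 Gy of protons, day 6, 4.01 to 6.52 for Ccl5 at 15 Gy of protons, day 2, and 1.04 to 2.61 for Cxcl10 at 15 Gy of photons, day 6. Counts of all genes called moved by over 1.5 times in cases that include the following, except where said. Without the filter, genes that rose at 4 Gy were 231 against 122 (protons, day 6), 158 against 74 (protons, day 2), 232 against 106 (photons, day 6) and 171 against 59 (photons, day 2). For photons they were 291 against 168 at 7 Gy and 461 against 285 at 15 Gy at day 6, and 453 against 172 and 431 against 284 at day 2, and those that fell at 15 Gy were 530 against 313 at day 6 and 633 against 263 at day 2. For 7 against 4 Gy of protons, day 6, 25 genes rose, 110 without the filter, 44 with DESeq2 and 12 with the replicate block. For 15 against 4 Gy of photons, day 2, 26 rose, 103 without the filter, 58 with DESeq2 and 5 by library size alone. The replicate block gave 126 against 74 at 4 Gy of protons, day 2, and 188 against 284 for 15 against 4 Gy of protons, day 6. Library size alone gave 1400 against 594 at 7 Gy of protons, day 6, and 492 against 289 for the proton minus photon effect. At 15 Gy of protons, day 6, it gave 1947 that rose against 1184, and 925 that fell against 1427. For the day 6 minus day 2 effect of photons, 10 fell, 64 without the filter and 34 with DESeq2. Single libraries left out moved the genes that rose at 15 Gy over 211 to 581 (protons, day 2), 146 to 458 (photons, day 6) and 151 to 612 (photons, day 2). For protons at day 6 they gave 794 to 1362 against 1184, which is within 1.5 times. Depth limits the changes at day 2, with 1 Ccl5 and 5 Cxcl10 counts in 3 proton controls and 7 Ccl5 and 12 Cxcl10 counts in 3 photon controls, and the shallow photon library of day 6, where 3 counts stand for 9.54 CPM.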
